A study of Mus musculus with 16 samples.

Results

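Striatal and cortical cells that carried a fluorescent reporter of parvalbumin interneurons were compared in the arrays with a high level of Pvalb, the transcript of parvalbumin itself. The arrays were chosen by the measured Pvalb level itself: one entered at 10 or more on the log2 scale, and 10 of the 16 did. In the PV-tdTomato line (genotype PV-tdTomato/+, no Cre) these were replicates 1 and 2 of both regions. In the PVCre line (genotype PVCre/+; tdTomato/+) they were all 4 striatal replicates and cortical replicates 1 and 3. The comparison thus set 6 striatal arrays against 4 cortical ones, with the line as a covariate. All mice were C57BL/6J, labelled male and 30 days old, the striatal tissue was dorsal striatum and the cortical tissue motor plus somatosensory cortex. Each Affymetrix mouse transcriptome array held amplified RNA of 2000 cells, sorted by fluorescence and pooled from 2 to 4 mice. Levels are log2 values after RMA normalization, and a call means an adjusted p under 0.05 by limma. The labels do not name the promoter of the reporter beyond the line names. As background, a reporter switched on by Cre stays on after Cre has acted, whatever the later level of the driver gene.

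Parvalbumin is a calcium-binding protein of GABAergic interneurons that fire fast and without fatigue. These neurons arise in the medial ganglionic eminence and settle in both cortex and striatum. In cortex they inhibit the somata and axon initial segments of pyramidal cells, and in striatum they give feedforward inhibition to projection neurons. Their fast spiking rests on Kv3 potassium channels, and many carry a perineuronal net of extracellular matrix.

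Pvalb was at 11.38 and 11.86 in striatum and 12.17 and 11.13 in cortex of PV-tdTomato mice. For PVCre mice the 4 striatal levels were 10.20, 11.23, 11.87 and 11.65, and the cortical levels 10.56 and 12.48. These values chose the arrays, so they are a description with no test: striatum minus cortex was -0.17 ± 0.44 (standard error, SE, as for all differences here). The lowest array inside the threshold stood at 10.20 and the highest outside it at 8.40. Gad1, which makes GABA, was at 14.41 and 14.09 in PV-tdTomato striatum, 14.04 and 14.00 in PV-tdTomato cortex, 11.92, 13.41, 14.43 and 13.92 in PVCre striatum, and 11.63 and 13.66 in PVCre cortex. Both striatal arrays of PV-tdTomato were above the cortical ones for Gad1, by little, and the regions overlapped in PVCre; the difference was 0.54 ± 0.51 (adjusted p = 0.645). Gad2, the other GABA-synthesizing enzyme, differed by 0.63 ± 0.44 (adjusted p = 0.51). Among the Pvalb-high arrays of the PVCre line, striatal replicate 1 and cortical replicate 1 were the lowest of their region in Pvalb, Gad1 and Gad2, with only 2 such arrays in cortex.

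Markers of other cells were not absent from these arrays. Oligodendrocyte markers averaged 12.05 to 12.20 in PV-tdTomato striatum and 12.54 to 12.58 in PV-tdTomato cortex. The PVCre averages were 13.93 to 14.20 for striatum and 14.51 to 14.61 for cortex, so striatum was below cortex without overlap in either line. The microglial markers averaged 5.45 to 5.74 in PV-tdTomato and 7.26 to 9.65 in PVCre. Background probe sets averaged 2.95 to 6.10, which marks the range where a level is close to background. Xist, the RNA of the inactive X chromosome, was at 5.71 to 6.04 in the PV-tdTomato arrays and at 5.90 in PVCre striatal replicate 2. It was at 13.40 to 15.03 in the other 5 PVCre arrays, against the label male. Since the arrays measured pools, fewer cells of a type and less RNA per cell cannot be told apart.

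**Figure D1:**
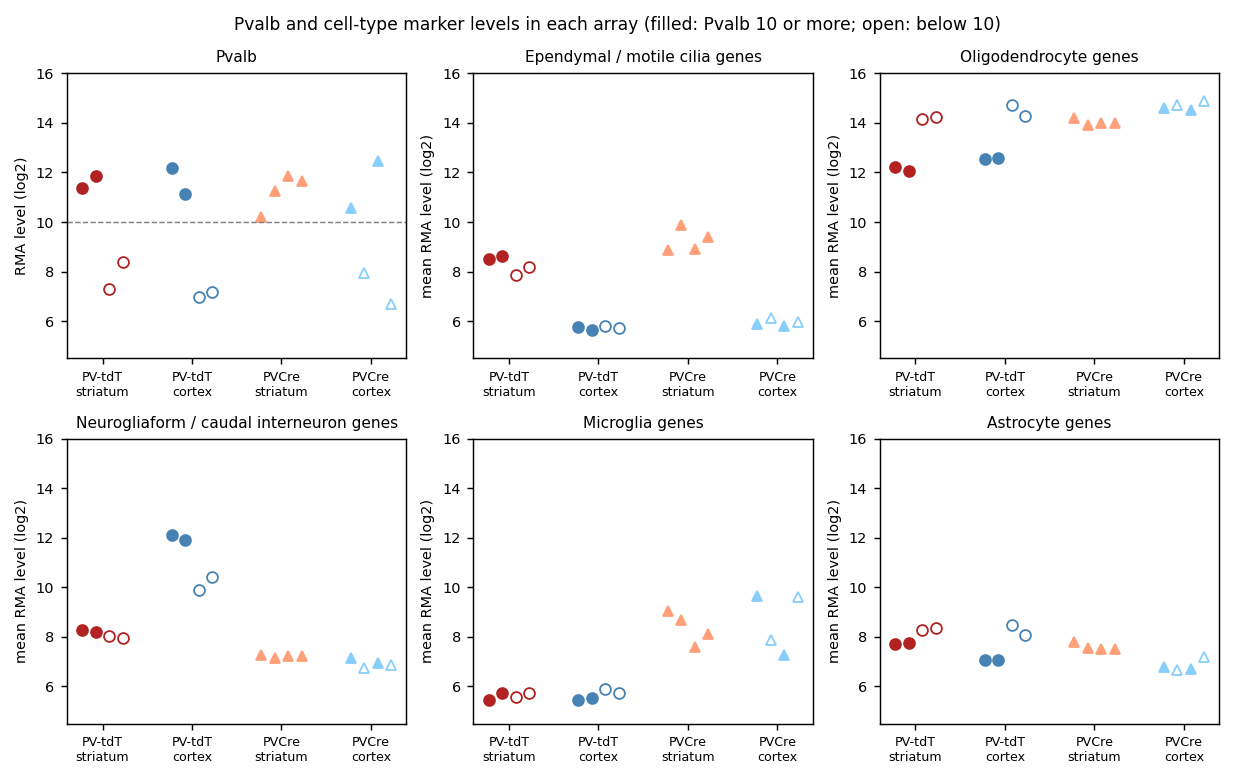
RMA level of Pvalb (log2; dashed line, the threshold of 10) and mean RMA level of 5 marker lists in each of the 16 arrays, by line and region. Filled symbols are the 10 arrays with Pvalb at 10 or more and open symbols the 6 others; the ependymal and motile cilia genes lay at 8.5 to 9.89 in the Pvalb-high striatal arrays and at 5.66 to 5.89 in the cortical ones.

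Across the genome, 1085 of 20494 genes tested differed between the regions at an adjusted p under 0.05, which is 5.29% of the genes tested. Of these, 693 were higher in striatum (3.38%) and 392 lower (1.91%). The regions did not overlap within either line for 665 of the higher (3.24% of genes tested) and 373 of the lower (1.82%). All 16 arrays, Pvalb-low ones included, gave 735 (3.59%), 622 higher and 113 lower, and 577 of them were among the 1085. The split depended on scaling: after each array was centred on its median, 533 were higher and 655 lower. With the replicate number as a block, 369 were higher and 117 lower. In that fit PVCre striatal replicates 2 and 4 had no cortical partner, so they did not inform the difference. The count fell to 620 without PV-tdTomato striatal replicate 2, to 665 and 713 without PV-tdTomato cortical replicate 1 or 2, and to 721 without PVCre cortical replicate 1. Because the oligodendrocyte markers followed the region in both lines, region and these markers cannot be told apart: with their mean as a covariate the SE was 3.02 times larger and 0 genes were called by limma, with 2028 at an unadjusted p under 0.05. Of the 1085 genes, 965 kept their sign in that fit. Other marker lists followed the region as well. Within lines, the oligodendrocyte mean correlated with region at -0.948. The means of the ependymal and ciliary, astrocyte and cholinergic markers correlated at 0.982, 0.975 and 0.934, and were not tried as covariates.

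The highest rises in striatum came from genes of motile cilia, the beating hairs of the ependymal cells that line the ventricles. Of the 19 tested genes on a list of ependymal and ciliary genes, 18 were higher in striatum (3.38% of all genes were) and none lower. The median difference was 2.72 against 0.03 over all genes. This list, like the others here, was chosen with earlier results of these data known, so its share is no test. With the replicate block 16 were higher, and 16 to 18 when each array was left out in turn. Tmem212, a membrane protein gene of ciliated cells, was at 12.35 and 12.47 in PV-tdTomato striatum and at 5.91 and 5.84 in PV-tdTomato cortex. In PVCre, Tmem212 was at 14.43, 15.63, 13.99 and 15.02 in striatum and at 6.27 and 5.59 in cortex. All 6 striatal arrays were thus far above all 4 cortical ones, and the fitted difference was 7.85 ± 0.47 (adjusted p = 7.27e-05). The cortical levels were close to background, so this size is a lower bound and no exact fold is given; the same holds for every gene here whose lower region lies near background, and for ranks by size. Fam183b, a ciliary gene, was at 10.54 and 10.89 against 6.02 and 5.57 in PV-tdTomato, and at 12.34, 13.21, 11.63 and 12.69 against 5.38 and 5.03 in PVCre. Its difference was 6.26 ± 0.46 (adjusted p = 9.28e-05).

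Structural parts of the cilium moved the same way. Rsph4a, a radial spoke head protein, was at 10.29 to 12.45 in striatum and at 5.12 to 5.81 in cortex, a difference of 5.57 ± 0.35 (adjusted p = 7.77e-05). Dnah6, an axonemal dynein heavy chain, differed by 2.72 ± 0.19 and Dnah12, another, by 3.05 ± 0.22. Dynlrb2, a dynein light chain, differed by 2.93 ± 0.37 (adjusted p = 0.00164). Hydin, of the central pair of the axoneme, differed by 2.13 ± 0.16. Rfx2, a transcription factor of ciliary genes, differed by 0.41 ± 0.09 (adjusted p = 0.029), and its relative Rfx3 by 0.40 ± 0.17 (adjusted p = 0.251). Rfx3 was the tested member that did not pass. In the fit of each line alone, 17 of the 19 were called higher in PV-tdTomato (3.27% of all genes were) and 17 in PVCre (2.08%). The list mean was 8.5 to 9.89 in the striatal and 5.66 to 5.89 in the cortical arrays, and the part of ciliated cells in the pools was not tested.

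RFX factors bind X-box sites in promoters of ciliary genes, so the promoters of the list were read for the half-site GTTGCC on either strand. RefSeq promoters (GRCm38.p6, 250 bases before to 50 after the start) were found for 17 of the 20 listed genes, and 7 held the half-site: Ccdc153, Dynlrb2, Fam183b, Hydin, Rfx2, Rfx3 and Tekt1. That is 41.2% of these genes, against 14.1% of all 27025 genes in the promoter table and 12.5% of its 32851 promoters. Longer palindromic forms were tried as well: the loosest of 5 was in 1 of the 17, Hydin, and in 0.804% of all promoters, and the other 4 were in none of the 17. Each form fixed the distance between its half-sites and most of their bases, so paired sites outside these forms were not counted. The half-site was settled on after those forms had been tried, so its share only describes the letters in these windows. Shown are the 3 genes with the highest rises among the 7 that hold it, and Tmem212, the highest rise of all, which does not; the half-site is in capitals. They lie at chr11:58801911-58802210 (Fam183b, minus strand), chr9:44240427-44240726 (Ccdc153, plus strand), chr8:116504765-116505064 (Dynlrb2, plus strand) and chr3:27896319-27896618 (Tmem212, minus strand), each read 5′ to 3′ on the gene's strand.
Fam183b: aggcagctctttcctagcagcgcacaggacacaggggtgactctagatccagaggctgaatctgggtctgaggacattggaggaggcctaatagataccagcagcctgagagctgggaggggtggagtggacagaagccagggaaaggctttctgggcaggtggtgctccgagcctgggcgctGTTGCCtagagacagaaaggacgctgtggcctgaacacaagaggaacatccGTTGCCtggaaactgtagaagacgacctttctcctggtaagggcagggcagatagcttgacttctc
Ccdc153: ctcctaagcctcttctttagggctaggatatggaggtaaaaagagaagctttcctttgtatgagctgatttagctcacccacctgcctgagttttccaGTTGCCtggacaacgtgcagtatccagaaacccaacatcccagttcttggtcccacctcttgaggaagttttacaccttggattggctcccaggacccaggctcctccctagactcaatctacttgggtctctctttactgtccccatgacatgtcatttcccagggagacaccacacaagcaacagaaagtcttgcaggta
Dynlrb2: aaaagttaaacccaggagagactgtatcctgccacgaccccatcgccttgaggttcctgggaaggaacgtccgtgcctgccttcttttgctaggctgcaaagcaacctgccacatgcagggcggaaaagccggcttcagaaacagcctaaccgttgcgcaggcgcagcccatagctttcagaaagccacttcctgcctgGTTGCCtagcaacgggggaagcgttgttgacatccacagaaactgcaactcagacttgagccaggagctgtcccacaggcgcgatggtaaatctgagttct
Tmem212: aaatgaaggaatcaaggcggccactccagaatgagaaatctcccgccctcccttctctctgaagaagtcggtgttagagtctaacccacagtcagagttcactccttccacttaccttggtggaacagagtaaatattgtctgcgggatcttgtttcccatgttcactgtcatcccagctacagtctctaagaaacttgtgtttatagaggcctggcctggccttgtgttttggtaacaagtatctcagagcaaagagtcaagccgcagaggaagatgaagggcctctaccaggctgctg
In Fam183b the half-site occurred 2 times, and in Ccdc153 and Dynlrb2 it occurred 1 time, always before the start.

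A second group of rises held genes known from striatal interneuron classes. Of 10 tested genes on that list, 7 were higher in striatum and none lower (70%, against 5.29% of all genes), with a median difference of 3.33. The list was chosen with earlier results of these data known, so this share describes it and is no test. The block kept 5, and 5 to 7 were called when single arrays were left out. The gene Mia, which is also on the ciliary list, was one of them. Crabp1, which binds retinoic acid, was at 15.09 and 15.42 in PV-tdTomato striatum against 7.97 and 8.61 in cortex. In PVCre it was at 9.99, 12.47, 11.98 and 12.71 against 7.52 and 7.29. The regions did not overlap in either line, and the difference was 5.49 ± 0.62 (adjusted p = 0.000856). Gpr83, a receptor for the PEN peptide, was at 15.60 and 15.38 against 10.59 and 9.39 in PV-tdTomato, and at 11.59, 14.02, 14.67 and 14.03 against 7.99 and 10.45 in PVCre. It differed by 4.85 ± 0.67 (adjusted p = 0.00273). Il1rapl2, a synaptic adhesion receptor, was at 10.27 to 12.51 in striatum and 6.38 to 7.84 in cortex, and differed by 4.87 ± 0.47. Opn3, an opsin, differed by 3.45 ± 0.38 (adjusted p = 0.000701).

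Lhx8 and Th were the other members called, and their regional difference was larger in the PV-tdTomato line. Lhx8, a transcription factor of cholinergic and related striatal interneurons, was at 11.56 and 11.30 against 6.04 and 6.28 in PV-tdTomato. In PVCre it was at 6.96, 7.67, 7.63 and 6.99 against 6.26 and 6.04. The regions did not overlap in either line, and Lhx8 was called in each line alone, at 5.27 in PV-tdTomato and 1.16 in PVCre (adjusted p = 0.0336), with a smaller difference in PVCre (adjusted p = 0.000813 for the difference between lines). Over both lines it differed by 2.92 ± 0.68 (adjusted p = 0.0366, and 0.146 with the replicate block). Its call was lost without any 1 of the 4 PV-tdTomato arrays and without PVCre striatal replicate 2 or 3. Th, tyrosine hydroxylase of dopamine synthesis, differed by 2.97 ± 0.72 (adjusted p = 0.0461, and 0.158 with the block). The call of Th was lost without any 1 of the PV-tdTomato arrays, without PVCre striatal replicate 2, 3 or 4, and without PVCre cortical replicate 1. Chat, which makes acetylcholine, had a mean level of 5.30 over the 10 arrays, and Gdnf, a trophic factor, of 5.34. Both were left out as low and were not tested. Gdnf was at 5.61 to 6.25 in the striatal and 4.30 to 4.96 in the cortical arrays, without overlap but near background. Chat was at 6.14 and 6.54 in PV-tdTomato cortex and at 4.93 to 5.18 in all other Pvalb-high arrays.

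Other large rises were Tm4sf1, a surface protein of endothelial and other cells, Rarres2, which encodes the adipokine chemerin, and Capsl, a calcium-binding relative of calcyphosine. Tm4sf1 was at 10.31 to 12.28 in striatum and 5.49 to 6.38 in cortex, a difference of 5.15 ± 0.30. Rarres2 was at 10.58 to 12.56 against 6.29 to 6.58 (4.85 ± 0.30), and Capsl at 9.06 to 11.26 against 5.69 to 6.23 (4.08 ± 0.33). The 12 genes with the highest rises also included Spata18 and Ccdc153, both of the ciliary list, at 4.82 ± 0.27 and 4.76 ± 0.33. All 12 stayed past the threshold with the block and with each array left out.

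**Figure D2:**
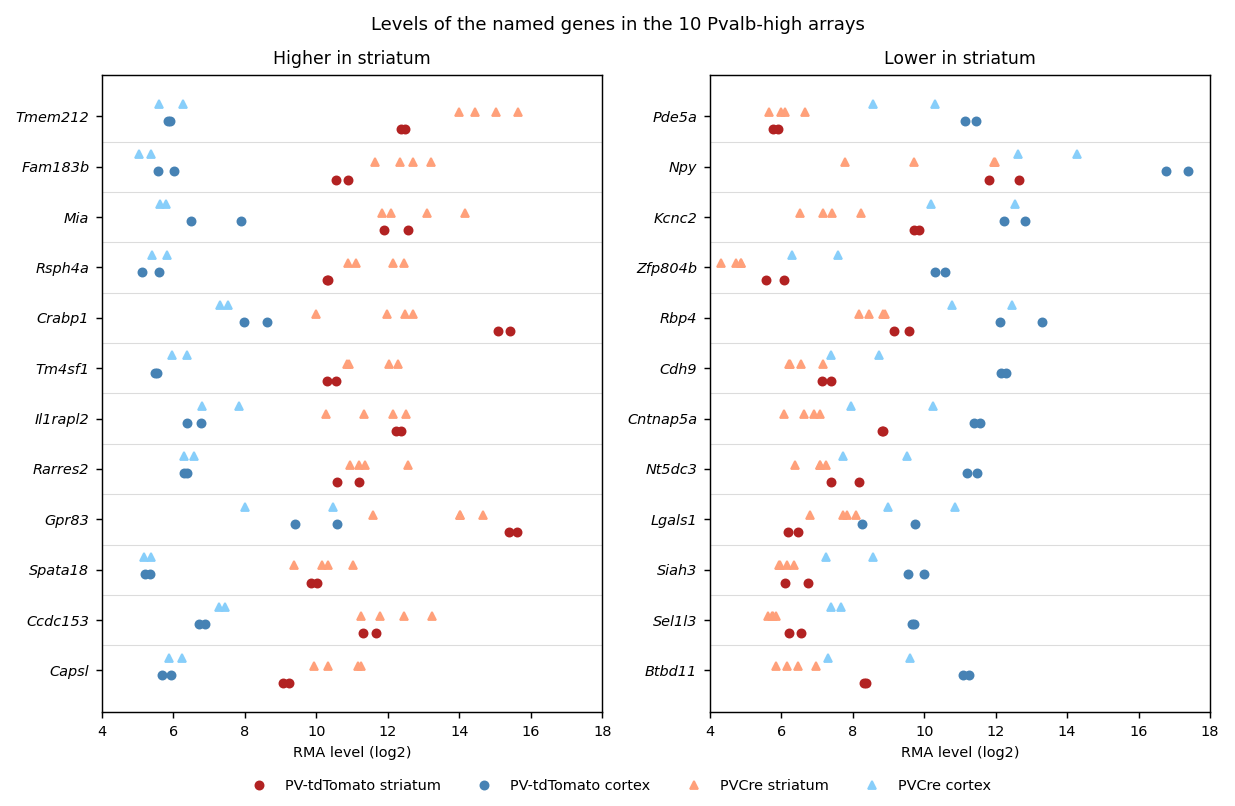
RMA level (log2) of the 12 genes with the highest rises and the 12 with the deepest falls in striatum, 1 point per array, by line (circle or triangle) and region (red or blue). Tmem212 in the 4 cortical arrays lay between 5.59 and 6.27, and Pde5a in the 6 striatal arrays between 5.66 and 6.66.

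The deepest fitted fall in striatum was Pde5a, a phosphodiesterase that breaks down cyclic GMP. It was at 5.77 and 5.91 in PV-tdTomato striatum and at 11.14 and 11.45 in PV-tdTomato cortex. In PVCre it was at 6.66, 6.11, 5.66 and 6.00 in striatum and at 8.58 and 10.31 in cortex. The cortical arrays were all higher than the striatal ones, and the fitted difference was -4.25 ± 0.46 (adjusted p = 0.000649), a lower bound in size because the striatal arrays were near background. Kcnc2, the Kv3.2 channel of fast spiking, was at 9.71 and 9.85 against 12.82 and 12.23 in PV-tdTomato, and at 6.51, 7.41, 8.24 and 7.16 against 10.18 and 12.53 in PVCre. Its difference was -3.48 ± 0.49 (adjusted p = 0.00317). Rbp4, a retinol carrier, differed by -3.15 ± 0.34 (adjusted p = 0.000699), with 8.18 to 9.57 in striatum and 10.77 to 13.28 in cortex. Zfp804b, a zinc finger gene, differed by -3.26 ± 0.45, and Cntnap5a, a contactin-associated adhesion protein, by -2.52 ± 0.39.

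Npy, neuropeptide Y, was at 12.65 and 11.82 against 17.37 and 16.76 in PV-tdTomato. In PVCre it was at 11.96, 7.79, 11.99 and 9.72 against 12.63 and 14.28, so the lowest cortical array was close to the highest striatal ones. The difference of -3.84 ± 0.84 passed the threshold (adjusted p = 0.0295) but not with the block (0.108). Its call was also lost without any 1 of the PV-tdTomato arrays, without PVCre striatal replicate 4 and without PVCre cortical replicate 3. Cdh9, an adhesion cadherin, differed by -3.00 ± 0.61 (adjusted p = 0.0207, and 0.0872 with the block), and its call was lost without any 1 of the 4 PV-tdTomato arrays. Its difference was -4.95 in PV-tdTomato and -1.53 in PVCre, where it was not called alone (adjusted p = 0.0698 by limma). The lines differed at an adjusted p of 0.0377. Nt5dc3 and Lgals1, which encodes galectin-1, differed by -2.48 ± 0.45 and -2.46 ± 0.42. Their adjusted p was 0.0121 and 0.00916, and 0.0873 and 0.0538 with the block. Siah3, Sel1l3 and Btbd11 completed the 12, at -2.46 ± 0.35, -2.44 ± 0.26 and -2.40 ± 0.41, and kept their calls in both checks. The fall of Sel1l3 was unequal between the lines, at -3.29 in PV-tdTomato and -1.79 in PVCre (adjusted p = 0.0188 by limma for the difference between lines).

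Among the genes that mark parvalbumin interneurons, 16 of 23 did not pass the test. Of the others, 2 were higher in striatum and 5 lower, which is 30.4% of the list, against 5.29% of all genes. The 5 lower ones were Satb1, Kcnc2, Kcnab3, Tac1 and Btbd11. Satb1, a chromatin organizer that these interneurons need to mature, was at 7.58 and 7.47 against 9.13 and 8.88 in PV-tdTomato, and at 6.99, 6.82, 7.04 and 7.04 against 8.40 and 9.04 in PVCre. The 6 striatal arrays all lay below the cortical ones, by -1.63 ± 0.14 (adjusted p = 0.000184). Tac1, the substance P precursor, differed by -2.26 ± 0.36 (adjusted p = 0.0058, and 0.072 with the block). The 2 higher ones were Nxph1, a neurexin ligand, at 2.20 ± 0.42, and Cox6a2, a respiratory subunit, at 1.83 ± 0.44; neither was called without PV-tdTomato striatal replicate 2 or PVCre cortical replicate 1. Cox6a2 also missed the threshold with the block (adjusted p = 0.075) and was called in no run that left out 1 array except those without PVCre striatal replicate 1 or PVCre cortical replicate 3. Lhx6, the lineage factor of these cells, differed by 0.75 ± 0.42 (adjusted p = 0.39), Sox6 by 0.42 ± 0.32 (0.55) and Erbb4, the neuregulin receptor, by -0.19 ± 0.38 (0.86).

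Of 52 potassium channel genes tested, 3 were higher in striatum and 6 lower, where 3.38% of all genes were higher and 1.91% lower. The counts with single arrays left out were 3 to 5 and 6 to 7. Kcnc2 fell while its Kv3.1 relative Kcnc1 differed by -0.24 ± 0.46 (adjusted p = 0.849). The Kv beta subunits went in opposite directions. Kcnab3 was at 6.57 to 8.22 in striatum and 8.59 to 10.32 in cortex (-2.05 ± 0.30, adjusted p = 0.00411). Kcnab1 was at 9.69 to 12.38 in striatum and 7.52 to 10.26 in cortex, and differed by 2.54 ± 0.38 (adjusted p = 0.00444). Kcnj9, a G protein-gated channel subunit, differed by -0.95 ± 0.15. Of 29 sodium, calcium and HCN channel genes, 1 was called (3.45%, below the 5.29% over all genes). It was Cacna1h, a T-type calcium channel, at -0.55 ± 0.10 (adjusted p = 0.0141, and 0.0725 with the block). Scn1a, the sodium channel of fast-spiking cells, differed by 0.06 ± 0.46 (adjusted p = 0.973).

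Transcription factors that pattern the forebrain were called in both directions, 5 higher and 4 lower of 32 (28.1%, against 5.29% of all genes). With the block it was 2 and 2. Without PV-tdTomato striatal replicate 2 the counts were 1 and 2. Meis2, a homeobox factor of the striatal primordium, was at 9.00 and 9.11 against 7.09 and 7.11 in PV-tdTomato, and at 8.83, 8.89, 8.80 and 8.58 against 7.38 and 6.82 in PVCre. The lines were alike and the arrays did not overlap, with a difference of 1.79 ± 0.13 (adjusted p = 9.2e-05). Mef2c, an activity-regulated factor of neurons, was at 9.47 and 9.53 against 12.49 and 12.28, and at 9.32 to 9.81 against a mean of 11.45 in PVCre. It differed by -2.31 ± 0.24 (adjusted p = 0.000461). Sp9, a factor of striatal and interneuron progenitors, differed by 0.57 ± 0.11 (adjusted p = 0.0153). Its call was lost with the block (0.0685) and without PV-tdTomato striatal replicate 2 or PV-tdTomato cortical replicate 1.

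Genes that handle GABA were not called over both lines. None of 8 genes of GABA synthesis, packaging and uptake and none of 11 GABA receptor genes passed, where 5.29% of all genes did. Lists this short can hold no call at that share. With the block 2 receptor genes were lower in striatum. Gabra2, a GABA receptor subunit, did not overlap between regions in either line and differed by 2.32 ± 0.60 (adjusted p = 0.0588). In PVCre alone it was called, at 3.35 (adjusted p = 0.0284). Slc32a1, the vesicular GABA transporter, differed by 0.17 ± 0.40 (adjusted p = 0.887). Glutamate receptors had 2 higher and 5 lower of 20 (35%, against 5.29% of all genes). The lower count was 2 without any 1 of the 4 PV-tdTomato arrays. Grik2, a kainate receptor subunit, was at 10.12 to 11.20 in striatum and 11.82 to 13.66 in cortex (-1.79 ± 0.23, adjusted p = 0.00192). Gria4, the AMPA receptor subunit with fast kinetics, was at 11.48 to 13.57 against 10.25 to 11.90 and differed by 1.66 ± 0.30 (adjusted p = 0.011). Grin2a, an NMDA receptor subunit, differed by -1.44 ± 0.26. Grik1, another kainate subunit, differed by -1.86 ± 0.41 (adjusted p = 0.0295), a call lost without any 1 of the PV-tdTomato arrays and without PVCre striatal replicate 2.

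Among 18 neuropeptide genes, 2 were higher in striatum and 5 lower (38.9%, against 5.29% of all genes). With the block 2 were higher and none lower. Without PV-tdTomato cortical replicate 1 the lower count was 3. Cck, cholecystokinin, was at 5.44 to 6.49 in striatum and 6.65 to 9.03 in cortex (-1.78 ± 0.26, adjusted p = 0.00368, and 0.0621 with the block). Its fall was larger in PV-tdTomato, at -2.64, than in PVCre, at -1.14 (adjusted p = 0.0206 by limma for the difference between lines). Cort, cortistatin, differed by -1.64 ± 0.28 (adjusted p = 0.00901, and 0.0684 with the block). Sst, somatostatin, differed by 1.34 ± 0.99 (adjusted p = 0.539). Of 17 peptide receptor genes, 2 were higher and 1 lower (17.65%). Mc4r, the melanocortin receptor, was at 6.78 to 10.54 in striatum and 4.82 to 5.58 in cortex, and differed by 3.84 ± 0.49 (adjusted p = 0.00173). Cckbr, a cholecystokinin receptor, differed by -1.11 ± 0.22 (adjusted p = 0.0202, and 0.112 with the block), a call lost without PV-tdTomato cortical replicate 1 or PVCre cortical replicate 1 or 3. Of 31 receptors for other modulators, 1 was higher and 2 lower, which is 9.68% against 5.29% over all genes. Chrm1, a muscarinic receptor, differed by -0.97 ± 0.16 (0.0726 with the block) and Oprd1, the delta opioid receptor, by -1.21 ± 0.19. Chrm2, another muscarinic receptor, differed by 1.66 ± 0.34 (adjusted p = 0.0202, and 0.0725 with the block), a call lost without any 1 of the PV-tdTomato arrays or without PVCre cortical replicate 1.

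Adhesion genes were called often. Of 29 cadherins and protocadherins, 4 were higher in striatum and 10 lower (48.3%, against 5.29% of all genes), with a median difference of -0.52. The block left 1 and 4, and the lower count was 5 without PV-tdTomato striatal replicate 1 or 2 or PV-tdTomato cortical replicate 1. No cadherin was higher without PV-tdTomato striatal replicate 2, PV-tdTomato cortical replicate 1 or PVCre striatal replicate 4. Pcdh10, a protocadherin of axon growth, was at 9.65 to 11.21 against 11.06 to 12.65 and differed by -1.34 ± 0.14 (adjusted p = 0.00053). Cdh11 differed by -0.99 ± 0.13 and Cdh7 by -1.40 ± 0.23 (adjusted p = 0.00734, and 0.0772 with the block). Of 54 synapse organizers, 2 were higher and 9 lower (20.4%), and 4 and 5 with the block. Slitrk2, a postsynaptic adhesion protein, was at 6.5 to 7.08 against 8.0 to 9.28 and differed by -1.90 ± 0.18 (adjusted p = 0.000328). Nlgn1, neuroligin 1, differed by -0.98 ± 0.16 (adjusted p = 0.00655).

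Of 49 axon guidance genes, 4 were higher and 8 lower (24.5%, against 5.29% of all genes). With the block it was 1 and 1. The lower count was 3 to 6 with each array left out. It was lowest without PV-tdTomato striatal replicate 2, PVCre striatal replicate 4 or PVCre cortical replicate 3. Plxnb3, a semaphorin receptor, differed by -1.04 ± 0.12 (adjusted p = 0.00116). Of 23 genes of the perineuronal net and matrix, 3 were higher and 2 lower (21.7%). None was lower with the block, nor without PV-tdTomato striatal replicate 2, PV-tdTomato cortical replicate 2 or PVCre cortical replicate 1. Adamts5, a protease that cuts net proteoglycans, was at 7.33 to 10.04 in striatum and 5.43 to 5.72 in cortex (3.43 ± 0.35, adjusted p = 0.000461). Hapln1, a link protein of the net, was at 9.79 to 12.68 against 6.06 to 10.47 and differed by 3.34 ± 0.61 (adjusted p = 0.0129). Acan, the main net proteoglycan, differed by 0.06 ± 0.14 (adjusted p = 0.885). Of 29 neurotrophic genes, 2 were higher and 5 lower (24.1%), and 0 and 1 with the block. Erbb3, a neuregulin receptor also made by oligodendrocytes, differed by -0.78 ± 0.10, and Gfra1, a receptor for GDNF, by -0.75 ± 0.11 (0.0556 with the block). Egfr differed by 3.61 ± 0.69 (adjusted p = 0.0163, and 0.0949 with the block), a call lost without PVCre cortical replicate 1 or 3.

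Genes of vesicle release were called higher in 4 and lower in 2 of 44 (13.6%, against 5.29% of all genes). With the block it was 4 and 0, and none was lower without PV-tdTomato cortical replicate 1. Syt10, a synaptotagmin, was at 7.87 to 10.21 in striatum and 5.71 to 6.71 in cortex and differed by 2.61 ± 0.23 (adjusted p = 0.000216). Unc13c and Doc2b, which act in vesicle priming and release, differed by 1.10 ± 0.12 and 1.16 ± 0.16. In metabolism, 2 of 65 oxidative phosphorylation genes were higher (3.08%, below the share over all genes), none with the block and 12 without PVCre cortical replicate 3. Of 18 genes of cholesterol synthesis 4 were lower (22.2%), with a median of -0.61. That count was 0 without PVCre cortical replicate 1 and 10 after median centring. Hmgcs1, an early enzyme of the pathway, was at 10.80 to 13.05 in striatum and 11.64 to 14.18 in cortex (-0.99 ± 0.23, adjusted p = 0.0368), a call lost in 8 of the 10 runs that left out 1 array, the exceptions being PVCre striatal replicate 1 and PVCre cortical replicate 3. None of 22 immediate early genes, which respond to activity and to dissociation, was called by limma, against 5.29% of all genes. Of 17 heat shock and unfolded protein genes 2 were higher (11.8%), and none with the block.

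**Figure D3:**
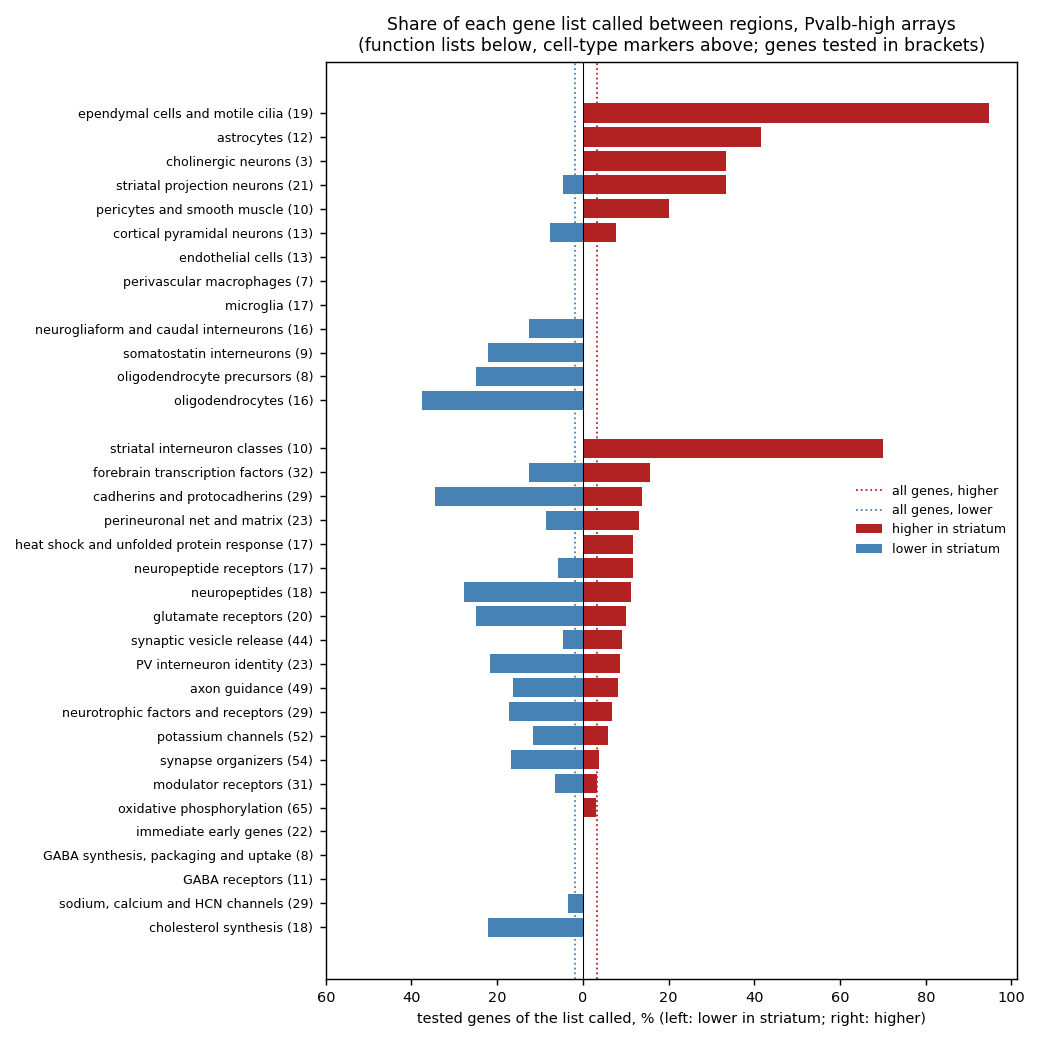
Share of the tested genes of each list that was called higher (right, red) or lower (left, blue) in striatum, in percent, with the shares over all genes as dotted lines (3.38% higher, 1.91% lower). The ciliary list reached 18 of 19 to the right, and the cadherins 10 of 29 to the left.

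Markers of the cells that surround these interneurons differed too. Of 21 tested genes of striatal projection neurons, 7 were higher in striatum and 1, Tac1, lower (38.1%, against 5.29% of all genes). The higher count was 4 without PV-tdTomato striatal replicate 2. In the fit of each line alone, 2 were called higher in PV-tdTomato (3.27% of all genes were) and 7 in PVCre (2.08%). The median differences of the list were 0.34 and 1.02. Pde1b, a calmodulin-dependent phosphodiesterase, was at 9.95 to 12.27 in striatum and 7.84 to 10.96 in cortex (1.61 ± 0.27, adjusted p = 0.00754). Rgs9, a striatal regulator of G protein signalling, differed by 1.85 ± 0.32, whereas Drd1, a dopamine receptor that defines one class of projection neuron, differed by 0.25 ± 0.35 (adjusted p = 0.78). The mean of the list ranged from 7.80 to 8.70 over the striatal arrays and from 7.11 to 8.33 over the cortical ones. Of 12 astrocyte genes 5 were higher (41.7%). Slc1a3, an astrocyte glutamate transporter, was at 8.09 to 8.53 in striatum and 6.17 to 6.58 in cortex and differed by 1.92 ± 0.13 (adjusted p = 9.2e-05). Sox9, a glial and ependymal factor, differed by 1.76 ± 0.17. The mean of the astrocyte list ranged from 7.50 to 7.78 over the striatal arrays and from 6.69 to 7.07 over the cortical ones, without overlap, while Gfap, the astrocyte filament, had a mean level of 5.38 and was left out as low.

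Oligodendrocyte genes went the other way. Of 16 tested, 6 were lower in striatum and none higher (37.5%, against 5.29% of all genes). The lower count was 2 with the block, and 3 without PV-tdTomato striatal replicate 2 or PVCre cortical replicate 1 or 3. Myrf, the master factor of myelination, was at 9.40 to 10.86 in striatum and 10.60 to 11.52 in cortex (-1.06 ± 0.13, adjusted p = 0.00157). Mag, a myelin adhesion protein, differed by -0.64 ± 0.13 (adjusted p = 0.0184, and 0.114 with the block), a call lost without PV-tdTomato striatal replicate 2 or PVCre cortical replicate 1 or 3. Olig2, shared with precursors, differed by -1.01 ± 0.15. None of 17 microglial, 7 perivascular macrophage or 13 endothelial genes was called, although the endothelial median was 0.97 and 3 endothelial genes were called higher without PVCre striatal replicate 1. The endothelial list mean was higher in striatum without overlap in either line. It was 6.26 to 6.34 against 5.86 to 5.92 in PV-tdTomato, and 7.15 to 9.15 against 6.36 to 6.44 in PVCre. Of 10 pericyte and smooth muscle genes 2 were higher (20%), and 4 without PVCre striatal replicate 1. The mean of that list was 6.00 to 7.68 over the striatal and 5.67 to 5.86 over the cortical arrays, without overlap. Acta2, smooth muscle actin, was at 7.43 to 9.02 against 5.25 to 5.76 (2.49 ± 0.32, adjusted p = 0.00178). The part of these cells in the other differences was not tested.

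The 2 lines gave different regional differences for some genes. Striatum minus cortex was called for 1052 genes in PV-tdTomato alone (5.13%) and for 713 in PVCre alone (3.48%). The difference between the lines' regional effects was called for 152 genes (0.742%): 121 with a higher value in PVCre (0.59%) and 31 with a lower one (0.151%). Vip, a peptide of caudally derived interneurons, was at 6.44 and 5.94 in PV-tdTomato striatum and at 14.82 and 15.31 in PV-tdTomato cortex. In PVCre it was near background everywhere, at 5.16, 5.84, 4.77 and 4.93 in striatum and 5.99 and 5.71 in cortex. Striatum minus cortex of Vip was therefore -8.88 in PV-tdTomato (adjusted p = 5.19e-06) and -0.67 in PVCre (adjusted p = 0.346), and the lines differed by 8.21 (adjusted p = 6.12e-05). Adarb2, an RNA-editing relative that marks caudal interneurons, was at 13.88 and 14.13 in PV-tdTomato cortex and at 5.51 to 7.21 in the other 8 arrays. Cxcl14, a chemokine, was at 15.66 and 15.29 there against 6.09 to 8.18 elsewhere, and Nr2f2, a caudal patterning factor, at 11.17 and 11.38 against 5.27 to 7.19. These 4 genes had the highest positive differences between the lines.

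Most of the neurogliaform and caudal interneuron list shared that pattern. Its mean level was 11.89 and 12.11 in the PV-tdTomato cortical arrays and at most 8.26 in the other 8. Of 16 tested members, 12 were lower in striatum in PV-tdTomato alone (1.86% of all genes were) and none higher. In PVCre alone 1 was lower (1.4% of all genes) and 3 higher (2.08%), and over both lines 2 were lower (1.91%). Whether such cells were among those sorted in that cortex was not tested.

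Genes with the lowest values in the same test were high in PV-tdTomato striatum. Th was at 14.10 and 14.14 there, 9.02 and 8.24 in PV-tdTomato cortex, 7.61, 7.67, 8.10 and 8.11 in PVCre striatum, and 6.58 and 7.02 in PVCre cortex. Striatum was above cortex without overlap in both lines, by 5.49 in PV-tdTomato (adjusted p = 2.16e-05) and by 1.07 in PVCre (adjusted p = 0.0575), and the lines differed by -4.42 (adjusted p = 0.000753). Trh, thyrotropin-releasing hormone, was at 11.85 and 12.15 in PV-tdTomato striatum and at 4.91 to 6.37 elsewhere. Tacr3, the neurokinin B receptor, was at 11.18 and 11.03 there and at 4.98 to 7.05 elsewhere. Gfra2, the neurturin receptor, was at 11.14 and 10.97 in PV-tdTomato striatum against 7.69 to 8.26 in its cortex, whereas in PVCre striatum, at 6.11 to 6.86, it was below the 7.78 of both cortical arrays. All 8 genes kept their calls with each array left out, while the count of 152 fell to 76 without PV-tdTomato striatal replicate 2, to 77 without striatal replicate 1, to 85 without cortical replicate 2 and to 101 without PVCre striatal replicate 2. The lines also differed in microglial and oligodendrocyte markers, as given above, and their part was not tested.

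**Figure D4:**
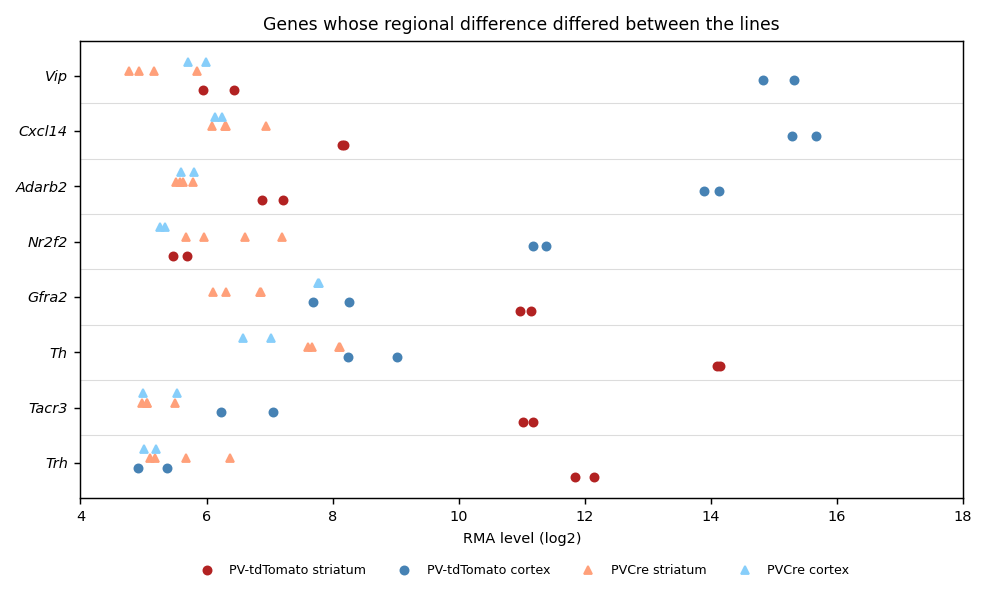
RMA level (log2) of the 8 genes whose regional difference differed most between the lines, 1 point per array among the 10 Pvalb-high arrays. Vip, Cxcl14, Adarb2 and Nr2f2 stand apart in PV-tdTomato cortex only, and Th, Tacr3, Trh and Gfra2 are highest in PV-tdTomato striatum.

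The arrays left out allowed 1 comparison with those kept. In PV-tdTomato, replicates 1 and 2 were Pvalb-high and replicates 3 and 4 Pvalb-low in both regions. The classes differed in other markers as well: oligodendrocyte markers averaged 12.05 to 12.58 in the Pvalb-high and 14.17 to 14.71 in the Pvalb-low arrays, and precursor markers 8.94 to 9.90 and 11.74 to 12.62. Xist was at 15.93 and 16.01 in the replicate 3 arrays and at most 6.04 in the others. The part of these differences in the comparison was not tested. In a fit of all 16 arrays, striatum minus cortex was called for 1130 genes in the Pvalb-high arrays (5.51%) and for 252 in the Pvalb-low arrays (1.23%). The difference between the 2 was called for 78 genes (0.381%), 16 with a higher (0.0781%) and 62 with a lower value (0.303%) in the Pvalb-high arrays. The count was 25 to 52 when each of the 8 arrays was left out, lowest without striatal replicate 1 or cortical replicate 3. Pde5a was at 11.14 and 11.45 in Pvalb-high cortex, at 7.35 and 7.79 in Pvalb-low cortex and at 5.75 to 5.96 in all 4 striatal arrays. Its regional difference was -5.46 ± 0.44 in the Pvalb-high arrays and -1.71 ± 0.44 in the Pvalb-low arrays. Adarb2 was at 13.88 and 14.13 in Pvalb-high cortex and at 11.09 and 11.70 in Pvalb-low cortex, with 6.87 and 7.21 against 8.29 and 8.05 in striatum. The 2 differences, -6.97 ± 0.21 and -3.23 ± 0.21, were unequal at an adjusted p of 0.000484.

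Genes whose difference was higher in the Pvalb-high arrays included glial ones. Pla2g7, a phospholipase of astrocytes and other cells, was at 10.72 and 10.88 against 6.93 and 6.52 in the Pvalb-high arrays, and at 8.95 in both striatal against 9.00 and 8.82 in the cortical Pvalb-low arrays. Slc25a18, a mitochondrial glutamate carrier of astrocytes, was at 8.28 and 7.97 against 6.08 and 5.70, and at 8.30 and 8.09 against 9.08 and 8.02. The astrocyte list mean was 7.05 and 7.07 in Pvalb-high cortex and 8.46 and 8.07 in Pvalb-low cortex, and its part was not tested. St18, a zinc finger factor, was at a mean of 12.97 against 9.45, and at 12.18 and 12.51 against 11.83 and 11.18. Penk, proenkephalin, did not differ past the threshold in the Pvalb-high arrays (-0.50 ± 0.41) but was higher in striatum in the Pvalb-low ones (2.70 ± 0.41, adjusted p = 0.00585; 0.898% of all genes were higher there). Among the 8 genes named from this test, only Adarb2 and Pla2g7 kept their calls with each array left out; Pde5a, Trh, Grpr, Penk, St18 and Slc25a18 each lost theirs in 6 or more of the 8 such runs. The Pvalb level set the 2 classes, so Pvalb itself was not tested.

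**Figure D5:**
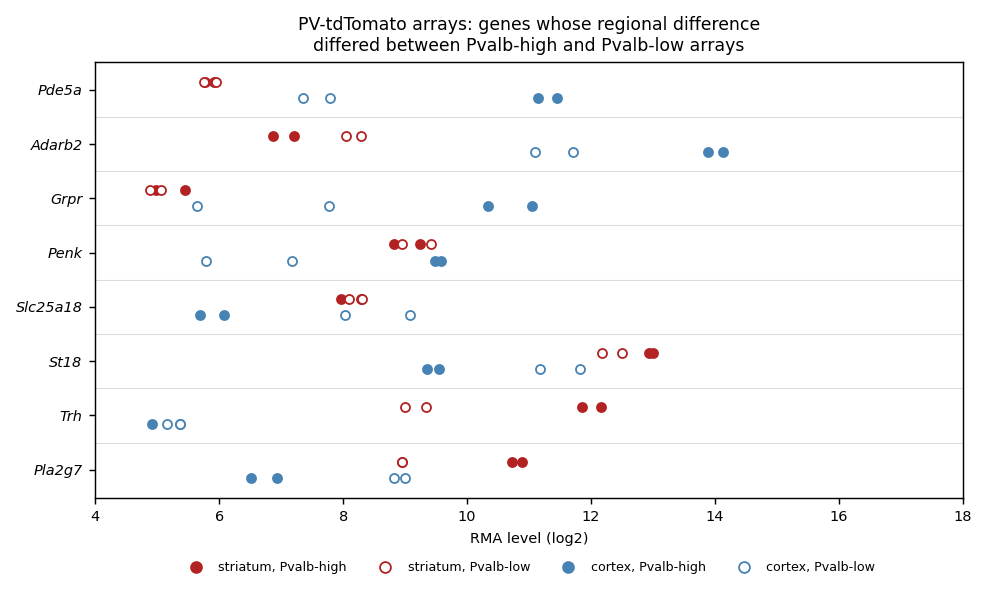
RMA level (log2) of the 8 genes whose regional difference differed most between Pvalb-high (filled) and Pvalb-low (open) arrays of the PV-tdTomato line, striatum in red and cortex in blue. Pde5a and Grpr were high in the Pvalb-high cortical arrays, and Pla2g7 and Slc25a18 were low there.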

How the data were processed

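The authors deposited log2 values; the submitters' processing notes name RMA and Affymetrix Expression Console, without versions. Of 65956 transcript clusters, 31216 had a single gene, and each of 30743 genes was read from its brightest cluster (mean of the 16 arrays). Genes with a mean under 5.52 over the 10 arrays, the lower end of the ranking, were left out, and 20495 genes, Pvalb included, were fitted. Linear models of region plus line were fitted in R 4.3.3 by limma 3.58.1 (functions lmFit and eBayes), with Benjamini-Hochberg adjustment over all genes fitted. Pvalb was part of that adjustment but was left out of the counts. The fits of each line, of the difference between lines and of the Pvalb classes used 1 mean per group.

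The arrays and gene lists were chosen with earlier results of these data known. Named genes were the 12 highest rises and 12 deepest falls without overlap in either line and with a mean of 8 or more in the higher region, the 4 highest and lowest of each test of unequal differences, and up to 4 genes of each list by p; Pvalb, Gad1, Gad2, Th and Gdnf were always named, and other list genes were named after their values were seen. A list count beside the shares over all genes describes that list and is no test.

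Replicates are pools of cells, and nothing says whether a striatal and a cortical pool shared mice. After group means were removed, same-numbered arrays correlated at 0.137 in PV-tdTomato and at 0.635 and 0.634 in PVCre. Of the arrays with unlike numbers, PVCre striatal replicate 4 and cortical replicate 3 correlated at 0.509. PVCre striatal replicate 2 and cortical replicate 1 correlated at 0.327, and all others were negative. The main fit was unpaired, and numbers were taken as pairs only in the fits with a replicate block. With 2 arrays in a group such correlations are forced to be of equal size, and the titles and descriptions of PVCre cortex number the arrays differently, so the pairing is an assumption. The fit was tested on simulated data. Precision is limited by how many arrays there are. Promoters were taken from RefSeq (GRCm38.p6). Figures were drawn with matplotlib 3.10.9.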

Additional observations from a re-analysis of the deposited data

Results flagged for a closer look

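In PVCre striatum the mean of the pericyte and smooth muscle markers was 7.68 in replicate 1 and 6.36 to 6.55 in the other 3 arrays. The gap was 0.859 of the range of the 4 arrays. Of 41 such groups examined this was the 1 that stood out, and chance alone flags about 1 in 20.

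The regional difference (striatum minus cortex) in PVCre minus that in PV-tdTomato was 8.21 for Vip, 7.52 for Cxcl14, 6.90 for Adarb2 and 6.76 for Nr2f2. It was -6.39 for Trh, -4.58 for Tacr3, -4.42 for Th and -4.33 for Gfra2. These 8 are the highest and the lowest values past the threshold of limma's test of unequal differences, and the cause was not tested.

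In the PV-tdTomato line the regional difference in the Pvalb-high arrays minus that in the Pvalb-low arrays was 4.03 for Pla2g7, 2.96 for Trh, 2.68 for St18 and 2.59 for Slc25a18. It was -3.74 for both Pde5a and Adarb2, -3.72 for Grpr and -3.20 for Penk.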

How the results depend on the processing

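The 1085 calls of the regional effect became 2068 with array weights, 1638 with all 16 arrays in 7 groups, 688 with Xist as a covariate, 329 with no line term, 98 with a minimum difference of 1 and 0 with the oligodendrocyte markers as a covariate. With each array left out the count was 620 to 1238. It was 281 to 577 in PV-tdTomato alone (1052 with all arrays), 228 to 936 in PVCre alone (713), 76 to 203 for the difference between lines (152) and 25 to 52 for that between Pvalb classes (78). Where an array left a group with 1 sample, that sample was assumed to vary like the others. The replicate block gave 486 calls, and 36 of the 98 named genes lost theirs; it was run for the regional effect only. With the oligodendrocyte covariate 24 of the 152 genes named by rule or fitted from the lists changed sign, 7 of them among the 98 called. These 7, with Gad1 and Gad2, were Kcnab1 (-0.0614), Gad2 (-2.17), Gad1 (-2.59), Egfr (-0.22), Hapln1 (-0.33), Cox6a2 (-0.71), Ndufa4 (-0.63), Hmgcs1 (0.52) and Slc4a4 (-0.38). Other causes were not tested. Of the 98 named genes, 72 kept their call in every run without 1 array. Filters on low values, quantile normalization, a trended prior and the mean of the within-line effects each gave a count within 1.5 times of the main one. So did a random block and control separation as a covariate. The counts with all 16 arrays and the line as covariate (735) and with Pvalb of 11 or more (903) were also within that range. A like count does not mean the same genes. With all 16 arrays 577 of the 1085 genes were called again, and 41 of the 98 named genes lost their call. With Pvalb of 11 or more these numbers were 736 and 11.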
